A study of Mus musculus with 4 samples.

Results

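The LIM homeodomain genes Lmx1a, Lmx1b, Lhx1, Lhx2, Lhx5, Lhx6, Lhx8, Lhx9, Isl1 and Isl2, 10 of the 21887 protein-coding genes in the gene table, were followed through peak lists of open chromatin in the PVH, the hypothalamic paraventricular nucleus. The family was chosen by the fold enrichment and rank of a region inside Lmx1b, which were far higher in both lists from mice given a Cre virus, so that contrast at Lmx1b is described below and not tested. For each gene, every deposited peak overlapping the gene body or the 50 kb to each side was taken. The assay was ATAC-seq, which reads accessibility from where a transposase can cut and tag the DNA. All mice were 12 weeks old and carried Otp fl/fl, loxP-flanked alleles of the homeodomain gene Otp, together with Ai14, a reporter switched on by Cre. The AAV-GFP group (2 libraries) had received an adeno-associated virus (AAV) with GFP as a control. The AAV-Cre group (2 libraries) had received a virus with Cre, which deletes Otp in the cells it infects. Tissue was taken 4 weeks after the injection. The study asked whether adult loss of Otp makes chromatin near its targets less accessible. The labels name no sort for infected cells, no promoter driving Cre and no number of animals per library, and the spread between libraries can thus be technical in part or whole.

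LIM homeodomain proteins carry a pair of LIM domains, which bind the bridging cofactor Ldb1, and a homeodomain, which binds AT-rich DNA with a TAAT core. They act in combination to set the identity of neurons. In the brain, Lmx1a and Lmx1b are best known from the ventral midbrain and the adjoining posterior hypothalamus, Lhx1 and Lhx5 from the suprachiasmatic and mammillary regions, Lhx6 and Lhx8 from GABAergic and cholinergic neurons, Lhx2 from the eye, cortex and tanycytes, Lhx9 from the lateral hypothalamus, and Isl1 from arcuate neurons. Isl2 is known mainly from motor neurons and the retina. Otp and Sim1, the defining transcription factors of the PVH, belong to other families.

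Most of the family had no peak at a start site. Within 1 kb of an annotated start site, Lmx1a, Lmx1b, Lhx6, Lhx8, Lhx9 and Isl2 had no peak in any library, which makes 6 of the 9 members with an annotated start. Over all 17492 protein-coding genes with an annotated start, 40.5% had no peak there and 44.1% had one in all 4 libraries. None of the 9 was open there in the AAV-GFP libraries alone or the AAV-Cre libraries alone, against 2.93% and 0.0457% of all genes. Isl1 alone among the 9 was open in all 4, Lhx2 in 3 and Lhx1 in 1. Lhx5, without an annotated start, had a peak within 1 kb of one or other gene end in every library. The promoter sequences of Isl1, Lhx2, Lhx1 and Lmx1b are printed to show where the peaks ended. They come from RefSeq (GRCm38.p6, the same assembly as mm10) and run 5′ to 3′ on the gene's own strand. All but the Lmx1b stretch, which ends farther upstream, run up to the base before the start site. Capitals mark bases inside a peak of AAV-GFP replicate 1, the library that had a peak at Isl1, Lhx2 and Lhx1.
Isl1: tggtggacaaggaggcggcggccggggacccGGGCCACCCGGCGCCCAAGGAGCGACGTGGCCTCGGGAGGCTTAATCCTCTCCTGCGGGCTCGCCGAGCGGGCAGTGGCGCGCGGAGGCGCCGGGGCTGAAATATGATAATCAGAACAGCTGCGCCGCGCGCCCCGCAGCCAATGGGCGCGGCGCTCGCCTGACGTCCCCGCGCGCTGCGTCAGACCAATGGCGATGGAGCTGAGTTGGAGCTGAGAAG
Lhx2: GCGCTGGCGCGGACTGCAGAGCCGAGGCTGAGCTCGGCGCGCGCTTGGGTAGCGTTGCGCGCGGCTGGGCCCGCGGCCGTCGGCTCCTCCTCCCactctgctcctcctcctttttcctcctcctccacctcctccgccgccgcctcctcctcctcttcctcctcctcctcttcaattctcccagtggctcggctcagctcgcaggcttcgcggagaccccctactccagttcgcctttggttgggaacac
Lhx1: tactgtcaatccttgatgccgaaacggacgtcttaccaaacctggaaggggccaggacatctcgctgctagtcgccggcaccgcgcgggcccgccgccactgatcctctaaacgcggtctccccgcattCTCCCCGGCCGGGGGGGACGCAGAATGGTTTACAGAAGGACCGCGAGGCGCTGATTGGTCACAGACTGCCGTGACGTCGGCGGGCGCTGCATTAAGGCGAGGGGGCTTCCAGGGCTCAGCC
Lmx1b: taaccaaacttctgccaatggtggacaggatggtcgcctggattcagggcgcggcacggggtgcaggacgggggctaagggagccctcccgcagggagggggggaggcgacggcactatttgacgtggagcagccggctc

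The Isl1 stretch is chr13:116309689-116309938 on the minus strand. Of its 250 bases, 219 lay in a peak in AAV-GFP replicate 1, 190 in AAV-GFP replicate 2, 53 in AAV-Cre replicate 1 and 150 in AAV-Cre replicate 2. The peak of AAV-Cre replicate 1 covered the far upstream part, whereas those of the other 3 libraries lay over the start site. The Lhx2 stretch, chr2:38351058-38351307 on the plus strand, precedes the second of 2 annotated starts and lies inside the gene as the table bounds it. Its upstream part was covered over 94 bases in AAV-GFP replicate 1, 29 in AAV-GFP replicate 2 and 70 in AAV-Cre replicate 2, and over 0 in AAV-Cre replicate 1. In the Lhx1 stretch, chr11:84525535-84525784 on the minus strand, 121 bases next to the start lay in a peak of AAV-GFP replicate 1 and 0 in the others. The Lmx1b stretch, chr2:33641209-33641348 on the minus strand, is cut to the 140 bases outside the gene as bounded in the table. It thus stops short of the annotated start at 33641098, and no library had a peak in it.

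The 12 annotated promoters of the 9 genes, each from 250 bases before to 50 after the start, were searched on both strands for fixed short motifs. TAATTA, a common homeodomain site, was in 0 of the 12, against 5.29% of 32851 promoters of all genes. The TAAT core, which a TAATTA also contains, was in 5 of 12, against 58.0% of all promoters, and the GC box CCGCCC was in 5 of 12, against 35.7%. Of the others, TAATTG was in 1 (8.00% of all promoters), the E-box CAGCTG in 2 (16.3%), the E-box CACCTG in 0 (20.2%) and the AP-1 site TGACTCA in 1 (5.20%). The promoters open in at least 1 library were rich in CG dinucleotides, with 37 at Isl1, 29 at the second Lhx2 start and 31 at Lhx1. Promoters without a peak ranged from 4 at Lhx8 through 24 at Lmx1b to 34 at the first Lhx2 start, and the median of all promoters was 7. A high CG count thus did not separate promoters with a peak from those without one in the family. A match is a description of letters only.

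AAV-GFP replicate 1 had 33 peaks in the 10 windows, AAV-GFP replicate 2 had 18, AAV-Cre replicate 1 had 16 and AAV-Cre replicate 2 had 16. The whole lists held 57682, 34100, 23384 and 26612 peaks in the same order, so the family's share was 0.0572%, 0.0528%, 0.0684% and 0.0601%. The mean share was 0.0550% ± 0.00313 (SD, n = 2) in AAV-GFP and 0.0643% ± 0.00587 (SD, n = 2) in AAV-Cre. The larger number of control peaks therefore went with longer control lists and not with a larger share of them. No read counts were used here, so sequencing depth is unknown.

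**Figure D1:**
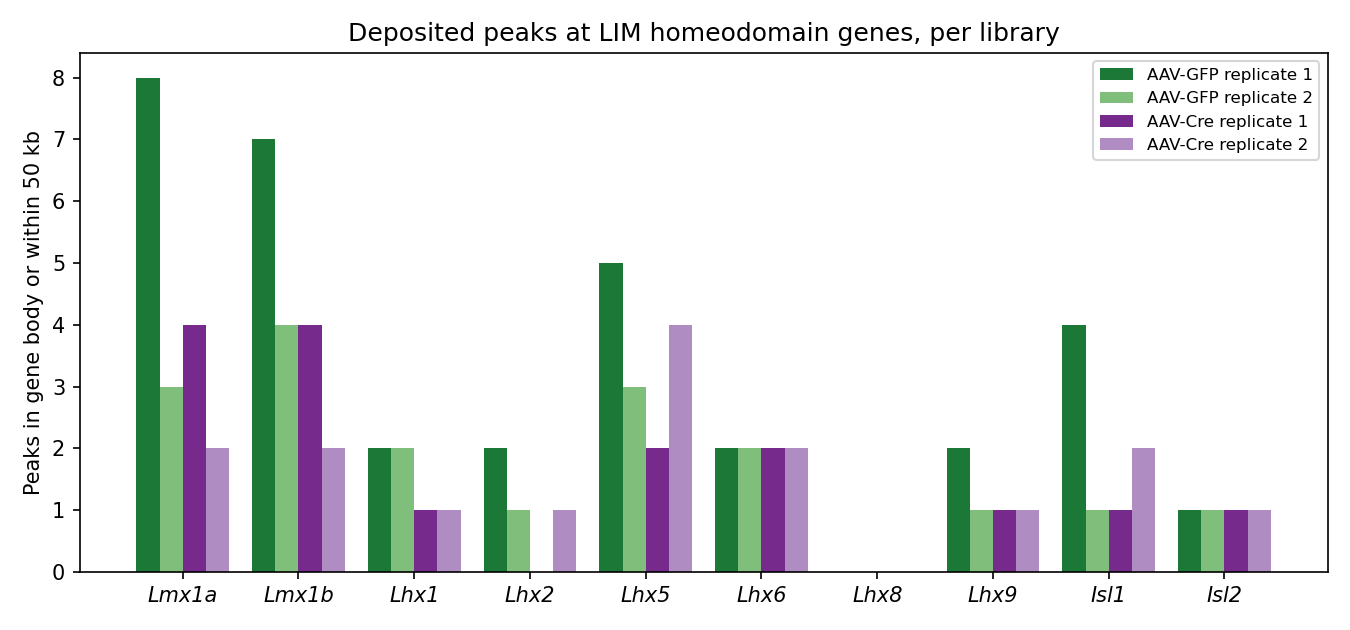
Number of deposited peaks overlapping each gene or the 50 kb to each side (y axis) for the 10 genes (x axis), with 1 bar per library. Lmx1a and Lmx1b held the most, with 17 peaks each summed over the 4 libraries, and Lhx8 held 0.

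The genes differed widely among themselves. Lmx1a and Lmx1b, at 161 and 80.2 kb the longest members, had 17 peaks each over the 4 libraries and Lhx5 had 14. Lhx6 and Isl1 had 8 each, Lhx1 had 6, Lhx9 had 5, Lhx2 and Isl2 had 4 each and Lhx8 had 0. In Lhx6, Lhx8, Lhx9 and Isl2 no peak of any library touched the gene body. The peaks counted for Lhx6, Lhx9 and Isl2 lay 7.46 to 36.0 kb away, most of them in neighbouring genes.

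Merging peaks with 1 bp or more in common across the 4 libraries gave 37 regions at the family. Of these, 10 had a peak in all 4 libraries, 4 in 3 libraries, 7 in 2 and 16 in 1 library. Of the 16, 13 came from AAV-GFP replicate 1, the longest list. Over all 67299 regions of the genome, 21.7% had a peak in all 4 libraries and 48.8% in 1 library, against 27.0% and 43.2% at the family. The 10 regions seen in all 4 had a median width of 594.5 bp and the other 27 of 216 bp, close to the 622 and 215 bp over all such regions. In all, 3 of the 10 overlapped the member gene itself, 6 overlapped another gene and 1 lay in no gene of the table.

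A region inside Lmx1b, at chr2:33616074-33616967, carried the pattern by which the family was chosen. Its centre lies 24.6 kb downstream of the start site, and the gene table gives no exons, so whether it is intronic was not determined. Fold enrichment, which the authors give for each peak as its summit height over the local background, was 5.28 in AAV-GFP replicate 1, 6.01 in AAV-GFP replicate 2, 10.2 in AAV-Cre replicate 1 and 11.5 in AAV-Cre replicate 2. The −log10 p of the same peaks was 8.56, 10.1, 25.3 and 27.0. Both AAV-Cre values lay above both AAV-GFP values on either scale.

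Rank gave the same order. In its own list, counted from the strongest by −log10 p, the peak stood at place 32036 of 57682 in AAV-GFP replicate 1 and 16880 of 34100 in AAV-GFP replicate 2. After AAV-Cre it stood at 1575 of 23384 and 1525 of 26612. Because lists of different lengths cannot be compared by place, regions were also ranked within the 14634 regions that had a peak in all 4 libraries, from 0 (strongest) to 100. On that scale the Lmx1b region stood at percentile 95.0 and 82.7 in the AAV-GFP libraries and at 10.7 and 10.4 in the AAV-Cre libraries. The mean moved by -78.3 points, the first of all 14634 regions in the direction of stronger rank. Ranked within whole lists of unequal length it moved by -46.3 points, and with lists of equal length it had no value, since the peak of AAV-GFP replicate 1 fell out. The AAV-GFP libraries differed from each other by 12.3 points and the AAV-Cre libraries by 0.297. The SD of this shift over all shared regions was 16.4 points. Since the region was picked for this contrast, these values describe it and support nothing further.

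**Figure D2:**
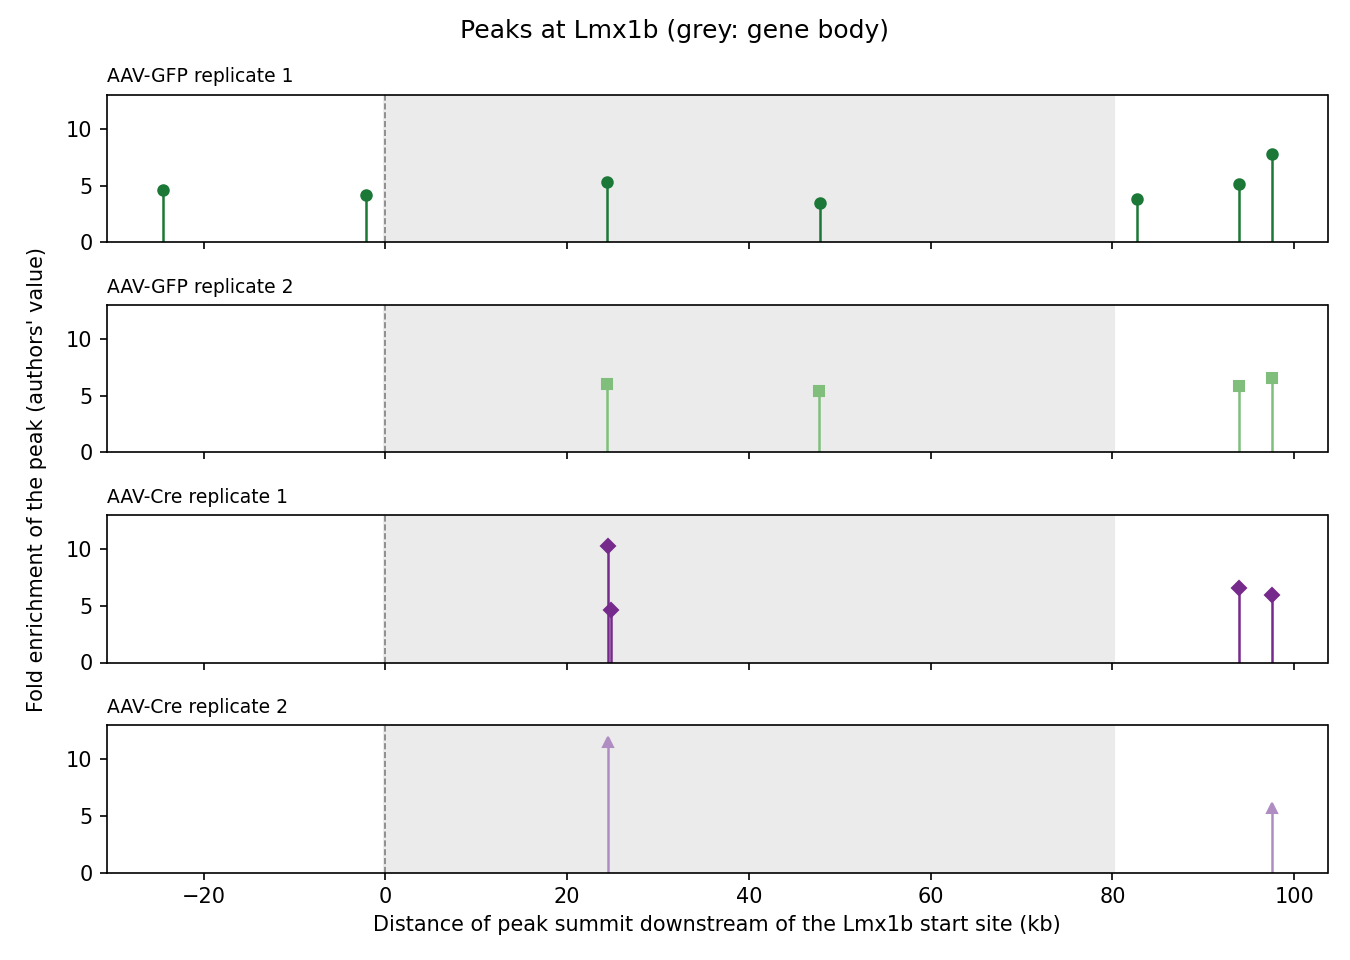
Fold enrichment of each deposited peak (y axis, the authors' value) against the distance of its summit downstream of the Lmx1b start site in kb (x axis), with 1 panel per library and the gene body in grey. The peak about 24 kb into the gene reached 10.2 and 11.5 in the AAV-Cre libraries and 5.28 and 6.01 in the AAV-GFP libraries, and the start site had no peak in any library.

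The summit of the Lmx1b peak also lay at different places. It was at position 33616732 in AAV-GFP replicate 1 and 33616734 in AAV-GFP replicate 2, 2 bp apart. In AAV-Cre replicates 1 and 2 it was at 33616563 and 33616624, 61 bp apart. The group means differed by 139.5 bp, with the AAV-Cre summits farther from the start site. AAV-Cre replicate 1 had a further, weaker peak in the region, at 33616074 to 33616313, with a fold of 4.63. Summits that differ between libraries were common: the median range over the 4 libraries was 103 bp for all shared regions and 113 bp for the 10 at the family, and the Lmx1b region had 171 bp.

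The authors' deposited group lists, each called on a pool of the group's reads by the peak names, showed the same contrast. There the Lmx1b peak had a fold of 6.81 in the AAV-GFP list and 12.1 in the AAV-Cre list. Among the 14573 regions present in both lists, it stood at percentile 89.4 and 11.2. These pools hold the same libraries and are no independent evidence.

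Elsewhere at Lmx1b the libraries did not show this pattern. A region 17.0 kb past the gene, at chr2:33543348-33543964, had folds of 7.82 and 6.53 in AAV-GFP and 5.95 and 5.66 in AAV-Cre, and its percentiles overlapped (41.3 and 45.7 against 39.2 and 61.0). The next region, 13.6 kb past the gene at chr2:33546841-33547368, had folds of 5.17, 5.88 and 6.58 in AAV-GFP replicates 1 and 2 and AAV-Cre replicate 1, and no peak in AAV-Cre replicate 2. Another region inside the gene, at chr2:33593141-33593480, was present in both AAV-GFP libraries (3.46 and 5.39) and in neither AAV-Cre library. It stood near the end of the first list, at place 56177 of 57682. Upstream of the start site, 1.97 and 24.3 kb from the gene, peaks came from AAV-GFP replicate 1 alone, with folds of 4.19 and 4.66, and a further lone peak of that library lay 2.46 kb past the gene (3.83). With all lists cut to the length of the shortest, no control-only region was left at the family.

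Regions most like the Lmx1b region were found by the smallest summed difference in percentile over the 4 libraries, among shared regions in bodies of other protein-coding genes. They lay in Chst8, a carbohydrate sulfotransferase gene, P2rx7, an ATP-gated channel gene, Slc45a1, a sugar transporter gene, Zfp831 and Vwa5b1, with summed differences of 28.6, 31.6, 31.9, 39.7 and 41.5 points. In Chst8 the fold was 6.86 and 7.09 in AAV-GFP and 9.89 and 11.9 in AAV-Cre. In P2rx7 it was 7.42 and 4.76 against 10.9 and 11.5. Likeness here rests on 4 libraries and was selected over all shared regions.

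Genes known from the tissue where Lmx1b is best known were examined beside it. In a list of 12 transcription factor genes of the posterior hypothalamus and ventral midbrain, which also held the PVH genes Otp and Sim1, 9 had no start-site peak in any library and 0 had one in all 4, against 40.5% and 44.1% of all genes. Foxa1, Foxa2, Foxb1 and Barhl2 had 0 regions within 50 kb. A region 35.4 kb from Barhl1, at chr2:28953381-28953787, was present in both AAV-Cre libraries (5.37 and 8.06) and in neither AAV-GFP library. It was 1 of the 18 regions of the list, against 1.18% of all regions, and 2 of the 18, beside Sim1 and within Otp, were present in the AAV-GFP libraries alone, against 11.5%. Whether the dissections held different amounts of neighbouring tissue was not tested.

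Lmx1a, the closest relative of Lmx1b, showed no matching shift. Inside the gene, at chr1:167802509-167802991 and 113 kb downstream of the start, 1 region had a peak in all 4 libraries, with folds of 8.66 and 6.29 in AAV-GFP and 5.23 and 5.38 in AAV-Cre. Its percentiles were 68.8 and 85.2 against 81.3 and 84.0, so the AAV-Cre values lay between the AAV-GFP values. A region 42.9 kb before the gene, at chr1:167644969-167645357, had folds of 9.31 and 9.52 against 5.93 and 7.73, and its percentiles overlapped too (68.5 and 52.6 against 72.5 and 50.3). A region 27.2 kb before the gene, at chr1:167660761-167661069, had a peak in both AAV-GFP libraries (5.59 and 4.76) and in neither AAV-Cre library. The remaining peaks inside Lmx1a had folds of 4.00 to 6.06, came from AAV-GFP replicate 1, AAV-Cre replicate 1 or both, and were absent from the second replicate of each group.

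At Lhx5, the sister gene of Lhx1, the ends of the gene differed between libraries. A region across its lower end, at chr5:120431582-120431997, had a peak in AAV-Cre replicates 1 and 2 (6.74 and 3.94) and in neither AAV-GFP library. It overlaps the transcripts Gm27199 and Gm31976 as well, and the reference used gave no start site or strand for Lhx5. The peak of AAV-Cre replicate 2 was weak, at place 25100 of 26612. The AAV-Cre group list held a peak there with a fold of 5.99 and the AAV-GFP group list held none. Near the upper end, at chr5:120440819-120441105, both AAV-GFP libraries (8.64 and 7.48) and AAV-Cre replicate 1 (6.14) had a peak, and AAV-Cre replicate 2 had none. The 5 further regions at Lhx5 lay 21.7 to 49.3 kb away, and none had a peak in all 4 libraries.

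The lower-end Lhx5 region was the 1 region of the 37 present in both AAV-Cre libraries alone, against a background of 1.18% of all regions. The converse pattern, a peak in both AAV-GFP libraries and in neither AAV-Cre library, was seen in 2 of 37, those at Lmx1a and Lmx1b, against 11.5% of all regions. Both AAV-GFP libraries had a peak in 16 family regions, and these 2 were absent after AAV-Cre, against 27% of all regions found in both controls. In the authors' deposited group lists, 6 of 16 AAV-GFP peaks at the family had no counterpart in the AAV-Cre list, against 48.7% over the whole list. Besides the 2 control-only regions, these lay where a single AAV-Cre library did have a peak. That was AAV-Cre replicate 1 at chr2:33546841-33547368 (fold 6.58) and chr5:120440819-120441105 (6.14). It was AAV-Cre replicate 2 at the Lhx2 start site (4.77) and at chr5:120467138-120467398 (6.08). Of the AAV-Cre peaks, 1 of 11 had none in the AAV-GFP list, against 11.5%. With counts this small, no departure from the background can be read from them.

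Isl1 and Lhx1 ranked weaker after AAV-Cre. At the Isl1 start site, at chr13:116309605-116310027, the fold was 7.07 and 6.39 in AAV-GFP and 4.31 and 4.84 in AAV-Cre, and the percentiles were 84.5 and 83.0 against 96.7 and 93.0. Both groups held weak peaks, and the values of the groups did not overlap. By the peak positions, the AAV-Cre replicate 1 peak lay upstream of the others. It touched only that of AAV-GFP replicate 1, so with an overlap of 50% required the region was no longer shared by all 4. The Lhx1 region lies 3.99 kb past the gene, within Aatf, an apoptosis-antagonizing transcription factor gene, at chr11:84513225-84513984. Its fold was 13.4 and 11.0 in AAV-GFP and 5.71 and 7.49 in AAV-Cre, with percentiles of 27.4 and 27.3 against 73.7 and 46.1. The AAV-GFP libraries agreed closely there, while the AAV-Cre libraries lay apart from them and from each other.

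The Isl2 region ranked stronger after AAV-Cre. It lies 26.2 kb from Isl2, in Etfa, a gene of mitochondrial electron transfer, at chr9:55511942-55512513. Its fold was 11.4 and 11.7 in AAV-GFP and 12.3 and 11.6 in AAV-Cre, so fold enrichment overlapped between the groups. The −log10 p, by which regions were ranked, was 28.0 and 25.4 against 26.5 and 24.1 and overlapped too. Only the region's place among the shared regions differed without overlap. Its percentile was 42.5 and 30.6 against 9.51 and 13.7. The regions at Isl1, Lhx1 and Isl2 each gave an exact 2-sided permutation p of 0.333 for the difference in mean percentile. That is the smallest p that 2 libraries against 2 allow, so no region could pass 0.05. Every region called apart in rank must give this p, so it adds nothing to the call.

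**Figure D3:**
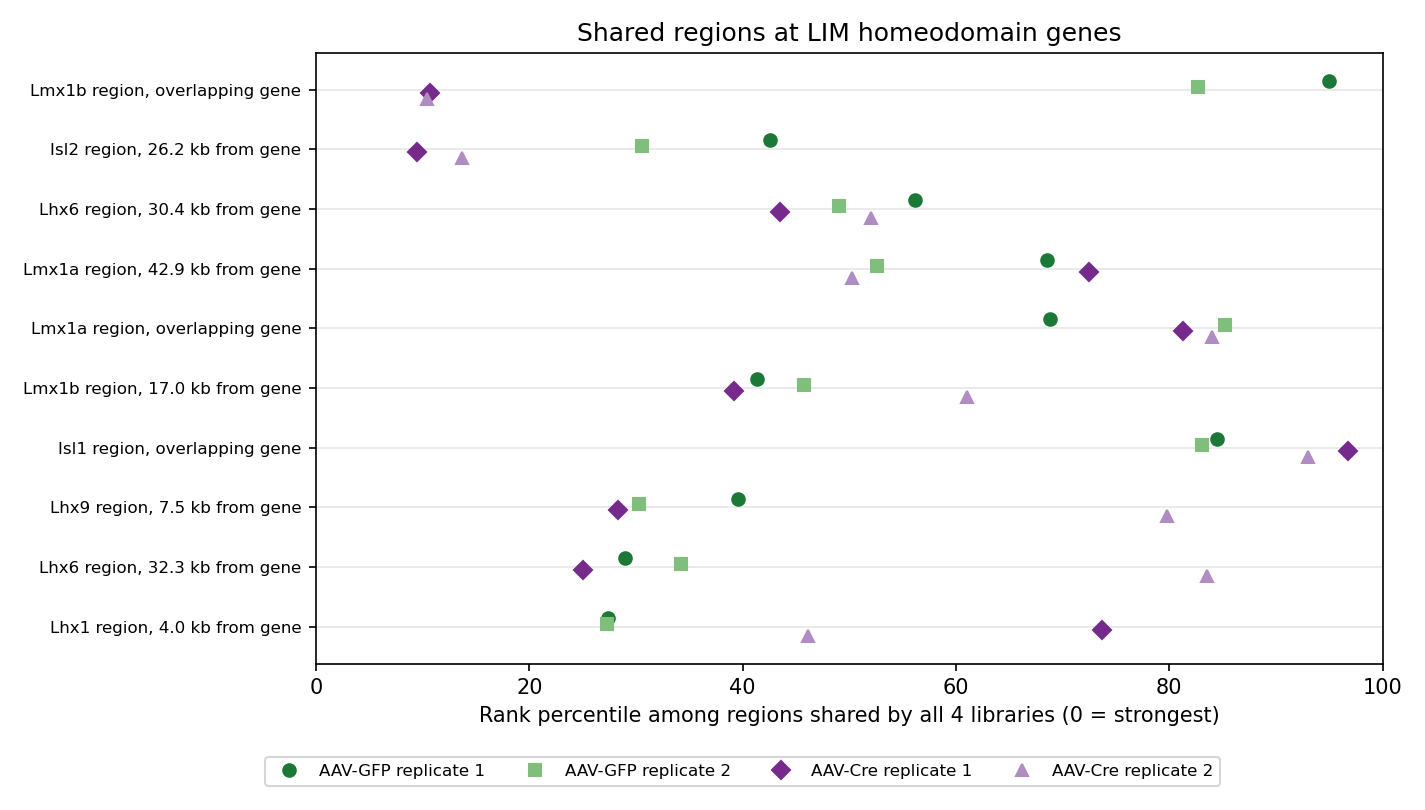
Rank percentile by −log10 p among the 14634 regions shared by all 4 libraries (x axis, 0 is strongest) for the 10 shared regions at the family (rows), with 1 point per library. The groups do not overlap at the Lmx1b region inside the gene and at Isl2, where AAV-Cre ranks stronger, and at Isl1 and Lhx1, where it ranks weaker.

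At Lhx6 and Lhx9 the AAV-Cre libraries disagreed with each other. The Lhx6 region at chr2:36048953-36049693, which overlaps Ndufa8 and Morn5, had folds of 12.6 and 10.6 in AAV-GFP, 8.81 in AAV-Cre replicate 1 and 5.25 in AAV-Cre replicate 2. Its percentiles were 28.9 and 34.2 against 25.0 and 83.5, so AAV-Cre replicate 1 ranked strongest of the 4 and AAV-Cre replicate 2 weakest. The Lhx9 region at chr1:138856299-138857190, in 2310009B15Rik, had folds of 12.3, 11.7, 8.73 and 5.78 and percentiles of 39.5, 30.3, 28.3 and 79.8 in the same order of libraries. The second Lhx6 region, at chr2:36136388-36136959 across Rbm18 and Mrrf, had folds of 10.1 and 8.97 against 7.35 and 7.34, with overlapping percentiles of 56.2 and 49.0 against 43.5 and 52.1. Lhx2 had no region in all 4 libraries. Its start-site region had folds of 7.67 and 5.33 in AAV-GFP and 4.77 in AAV-Cre replicate 2, and AAV-GFP replicate 1 alone had another peak inside the gene (5.59).

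Over the 10 shared regions, 2 ranked stronger and 2 weaker after AAV-Cre without overlap of the groups, and 6 overlapped. One of the 2 ranked stronger is the Lmx1b region by which the family was chosen, which leaves 1 of the other 9, that at Isl2. Over all 14634 shared regions, 19.8% ranked stronger and 19.7% weaker in this way, and nothing is read from the family's count. Ranked within whole lists of unequal length, 8 were weaker, and by the group lists 4 were stronger and 6 weaker. The group lists hold 1 value per group, so no region can overlap there and each must fall to a side. Leaving out 1 library likewise leaves a single value in a group, which makes ranking apart easier to reach. Neither count is comparable with that of 2 libraries against 2. The median shift was 6.10 points toward weaker rank at the family and -0.0214 over all shared regions. Shifts at the family ran from -78.3 at Lmx1b to 32.6 at Lhx1. Of all shared regions, 2.78% shifted at least as far toward weaker rank as Lhx1, the largest such shift of the family. The share was 22.4% for the Isl1 region, and 6.33% toward stronger rank for the Isl2 region. Leaving out 1 library moved the counts, to between 3 and 7 stronger and between 1 and 5 weaker, with 7 stronger without AAV-Cre replicate 2 and 5 weaker without AAV-Cre replicate 1.

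**Figure D4:**
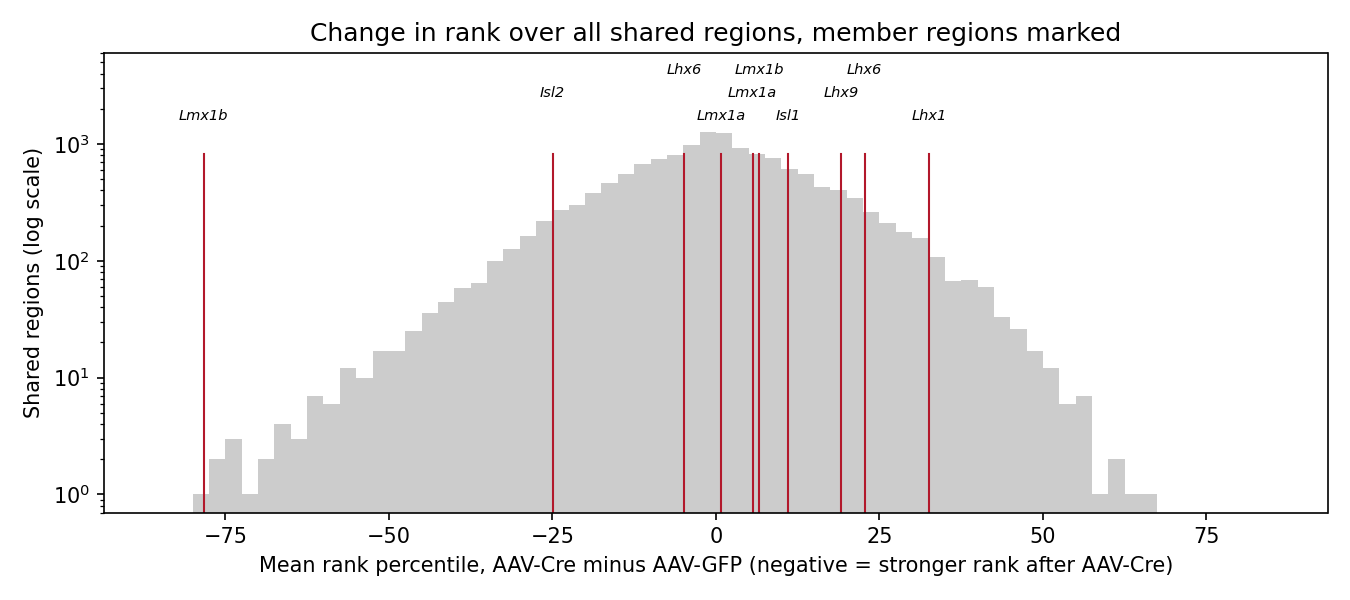
Number of shared regions (y axis, log scale) by the change in mean rank percentile from AAV-GFP to AAV-Cre (x axis, negative is stronger after AAV-Cre), with the 10 regions at the family as red lines named by gene. The Lmx1b region inside the gene sits at -78.3, at the edge of the distribution, and the other 9 lie between -25.0 and 32.6.

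The rest of the LIM network was read from lists set beside the family. Lhx3 and Lhx4, the remaining LIM homeodomain genes, had 9 regions within 50 kb. Of these, 1 had a peak in all 4 libraries and 1 in both AAV-GFP libraries alone, beside 21.7% and 11.5% of all regions. The start site of Lhx3, a pituitary and motor neuron factor, was open only in AAV-GFP replicate 1 (5.32) and that of Lhx4 in no library. Of 10 cofactor and LIM-only genes, 5 had a start-site peak in all 4 libraries, namely Ldb1, Ldb2, Ssbp2, Lmo4 and Rlim. That is near the 44.1% of all genes, and the family had the 1 of 9 given above. Ldb1, the bridging cofactor, had start-site folds of 8.28 and 7.51 in AAV-GFP and 8.71 and 7.02 in AAV-Cre, which overlapped. Its percentiles did not, at 22.5 and 24.8 against 9.84 and 20.6, so by rank it was stronger after AAV-Cre. Rlim, a ubiquitin ligase that targets Ldb proteins, had folds of 19.3 and 14.5 against 7.54 and 9.42. Ldb2 had 9.99 and 8.39 against 4.81 and 5.52. Both ranked weaker after AAV-Cre, with percentiles of 9.55 and 16.2 against 46.0 and 30.0 at Rlim. Those at Ldb2 were 53.7 and 59.7 against 91.3 and 84.5. Ssbp2 had folds of 17.9 and 14.4 against 10.2 and 12.1, but its percentiles overlapped, as did those at Lmo4. In Ssbp3, a partner of Ldb1, both AAV-GFP libraries had a start-site peak (10.3 and 5.60) and neither AAV-Cre library did, a pattern seen in 2.93% of all genes. Of the 16 shared regions near these cofactor genes, 5 ranked stronger and 4 weaker after AAV-Cre without overlap, beside the 19.8% and 19.7% of all shared regions.

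Markers of the tissue gave the following start-site peaks. Over all genes with an annotated start, 44.1% had one in all 4 libraries and 40.5% in none. A further 2.93% had one in both AAV-GFP libraries alone, and 12.4% in some other set of libraries. Nothing is read from marker counts this small. Of 9 PVH genes, 3 had a peak in all 4 libraries, 3 in some and 3, Avp, Oxt and Trh, in none. Otp had folds of 3.73 and 4.22 in AAV-GFP, none in AAV-Cre replicate 1 and 5.52 in AAV-Cre replicate 2, and which part of Otp is deleted is not stated in the labels. Markers of GABAergic neurons and neighbouring nuclei were open in all 4 libraries at 4 of 13 genes, and Dlx2 and Dlx6 were open in the AAV-GFP libraries alone. For 4 of 4 microglial and 4 of 4 endothelial and mural markers no library had a start-site peak. Some but not all libraries had one at 2 of 4 thalamic, 4 of 7 oligodendrocyte lineage and 3 of 5 astrocyte markers, and 1 of 3 ependymal markers had one in all 4. Their part in the values at the family was not tested.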

How the data were processed

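ATAC-seq peaks from the PVH of 2 AAV-GFP and 2 AAV-Cre libraries were analysed on mm10. The submitters' processing notes name FastQC, Trim Galore, Bowtie2 and MACS2. The sources used here give no versions, read filters, transposase shift or peak thresholds. The authors deposited 6 peak lists, 1 per library and 1 per group. The group lists are titled overlap peaks, and their peak names call them pools. The deposited start, end and summit are in bp, and the authors' deposited score restates −log10 q as an integer. The deposited fold is the authors' ratio of summit signal over background. The authors also deposited a −log10 p and a −log10 q for each peak. These values described, ranked or filtered peaks within their list. Depth is unknown, and list length can depend on it.

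Peaks sharing at least 1 bp were merged, and the strongest peak by −log10 p stood for a library. Groups were called apart in rank when both AAV-Cre percentiles lay on the same side of both AAV-GFP percentiles. Differences in rank percentile were tested by the exact permutation test in scipy 1.17.1, with pandas 2.3.3. Genes came from a RefSeq table of GRCm38.p6 without strand or exons, and start sites and sequences from a RefSeq promoter table, which held 9 of the 10 genes. For Lhx5 a window of 1 kb around both gene ends was used in its place. The sequence search covered promoters only. Merging and ranking were tested on simulated peaks of equal width set well apart, so barely touching or split peaks were not tried.

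Members, gene lists and tests were chosen with earlier results of these data known. All 10 members are named, with their regions in the gene body, at a gene end, specific to a group or apart in rank. Of other genes, the 5 most like the Lmx1b region and examples of list counts are named, the Barhl1 and Otp values having been chosen after they were seen. Alternatives were list length, a −log10 q of at least 5, overlap, windows, rank measure, group lists, each library left out and same-numbered libraries as pairs.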

Additional observations from a re-analysis of the deposited data

How the results depend on the processing

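Of 110 alternative values for 10 results, 71 stayed close to the reported value, and those that moved are given here. Some could not change by construction, such as mean peaks of a group when a library of the other group was left out. The tally is therefore no measure of robustness. Only the Lmx1b shift could reverse, and it did not. Group lists and a left-out library leave 1 value in a group, which loosens the pattern and rank criteria. The cause of a move was not tested unless the alternative's construction shows it. The Lmx1b shift was -71.4 to -82.4 points with a library left out and -46.3 when ranked within whole lists of unequal length. At equal length (23384 peaks) it had no value, because the AAV-GFP replicate 1 peak, at place 32036, fell out.

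Mean peaks per AAV-GFP library, 25.5, became 14 with lists of equal length, 16.5 at the stricter threshold (−log10 q from 5), 9 in gene bodies alone, 13.5 within 10 kb and 45 within 100 kb, and 18 to 33 with a library left out. Mean peaks per AAV-Cre library, 16, became 9.5, 6 and 9 at the stricter q, in gene bodies and within 10 kb. The 10 regions in every library became 3 in gene bodies and 5 within 10 kb, and 9 to 12 with a library left out.

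The 2 control-only regions became 0 at equal length, 1 in gene bodies, 1 within 10 kb, 6 within 100 kb, 6 by group lists and 4 to 15 with a library left out, 15 without AAV-GFP replicate 2. The 1 Cre-only region became 0 under both the stricter q and equal length, and 1 to 2 with a library left out. Regions ranked stronger, 2, became 1 at equal length, in gene bodies and within 10 kb, 4 by group lists and 3 to 7 with a library left out. Regions ranked weaker, 2, became 1 at the stricter q, with overlap of 50% and in gene bodies, 8 within whole lists, 6 by group lists and 1 to 5 with a library left out. The 2 genes with gene-end peaks in every library became 0 at the stricter q, 1 at equal length and 2 to 3 with a library left out.

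The replicate block, which compares same-numbered libraries as pairs, can change only the calls of rank. These stayed at 2 stronger and 2 weaker. The pattern counts and the Lmx1b shift do not use the pairs and could not change. The correlation of within-group differences over shared regions was -0.0166, and library numbers were therefore not taken to pair the samples.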

Other observations

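Values that belong to no comparison above stood at the edge of the windows. A peak 47.6 kb past Lmx1a, at chr1:167896322-167896564, was found in AAV-GFP replicate 1 alone with a fold of 14.7, at place 5028 of 57682, the highest fold of that library at the family. The last region inside the 50 kb limit lay 49.3 kb from Lhx5, in Plbd2, with folds of 3.70 in AAV-GFP replicate 1 and 4.01 in AAV-Cre replicate 2. The first regions outside it lay 51.0 kb from Lmx1a, in Rxrg, with folds of 5.59 and 4.02 in the AAV-GFP libraries alone, and 51.7 kb from Lhx2, in Dennd1a, with folds of 8.05 and 7.07 in AAV-GFP and 5.67 and 6.39 in AAV-Cre.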
